A study of Mus musculus with 4 samples.

Results

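Organoids grown from mouse small intestinal crypts, on day 5 of culture, were compared with mouse small intestinal villus for every miRNA measured. The day 5 and villus arrays out of 4 in the study were used. The villus sample is labelled as epithelium, but several miRNAs of muscle, stroma, blood and vessel cells were also high on its array, as given below. All 1900 miRNA probes of the array were taken, and 3 with a quality mark, miR-664-5p, miR-669h-5p and miR-7000-5p, were left out, which left 1897. The other arrays held crypt epithelial cells and organoids on day 1 of culture, and their values are given beside the comparison where they place it. Each group had 1 array, so nothing here measures the spread between animals or cultures and no p-value was computed. Neither sample carries a genetic change or a drug treatment in the labels. The sources used here do not give strain, age, the number of animals pooled, the culture medium or the way villus cells were isolated.

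MicroRNAs are short RNAs that pair with messenger RNAs through their seed, the bases near the 5′ end, and lower the output of those messages. The villus carries differentiated absorptive and secretory cells, whereas the crypt below it holds the stem and dividing cells. Crypts placed in a gel culture close into a cyst and then grow buds that keep dividing cells beside differentiated ones, without the muscle, vessels and blood cells of the gut wall. Among gut miRNAs, miR-192, miR-194, miR-215 and the miR-200 family are known as epithelial, the miR-17 cluster goes with division, and let-7 rises in many tissues as cells mature.

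The sequences of the miRNAs on which the comparison turned are shown first, because the sets differ in base content and in shared seeds. All are mature RNAs from RefSeq (GRCm38.p6), written 5′ to 3′ with the seed, bases 2 to 8, in capitals. Of 1885 probes with a single miRNA name, 1612 matched 1 mature sequence, and 38 of the 43 miRNAs higher on day 5 and 58 of the 71 lower ones were among them. The first set holds 8 of the miRNAs that were farthest above villus, most of them rich in G.
miR-8119: gAGGAGAGggagcuaggguc
miR-8099: cCAAGGCGugggaaagguugu
miR-6366: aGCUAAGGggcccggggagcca
miR-7036a-5p: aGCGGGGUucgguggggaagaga
miR-7047-5p: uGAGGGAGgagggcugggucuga
miR-210-3p: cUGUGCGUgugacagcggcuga
miR-6244: gGGGGCGUggaauuaucgggu
miR-326-5p: gGGGGCAGggccuuugugaaggcg

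The next set holds miRNAs that were farthest below villus, including those of red blood cells (miR-451a), endothelium (miR-126a-3p) and leukocytes (miR-142a-5p).
miR-7077-5p: gGCCAAGGucccauggcaggc
miR-6538: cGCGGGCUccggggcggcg
miR-6402: gAGCAGUUuucccaggaacccgc
miR-451a: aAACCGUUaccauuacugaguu
miR-6999-5p: aAGGAAGGagagucagcaagcac
miR-3154: cAGAAGGGgagucgggagcgga
miR-126a-3p: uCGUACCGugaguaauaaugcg
miR-142a-5p: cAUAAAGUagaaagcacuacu

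The last set holds families that were lower on day 5 and share a seed. Within it, miR-15a-5p and miR-16-5p have the seed of miR-195a-5p and miR-497a-5p, and miR-192-5p has that of miR-215-5p, but miR-15a-5p, miR-16-5p and miR-192-5p did not reach 2-fold.
let-7a-5p: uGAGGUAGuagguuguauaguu
let-7b-5p: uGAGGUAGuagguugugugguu
let-7f-5p: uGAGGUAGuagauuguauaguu
miR-30a-5p: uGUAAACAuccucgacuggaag
miR-30c-5p: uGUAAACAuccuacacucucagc
miR-30e-5p: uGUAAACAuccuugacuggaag
miR-29a-3p: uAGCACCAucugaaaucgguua
miR-29b-3p: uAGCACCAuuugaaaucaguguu
miR-29c-3p: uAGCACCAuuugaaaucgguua
miR-26a-5p: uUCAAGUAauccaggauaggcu
miR-26b-5p: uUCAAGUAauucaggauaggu
miR-195a-5p: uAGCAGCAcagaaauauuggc
miR-497a-5p: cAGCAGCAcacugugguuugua
miR-15a-5p: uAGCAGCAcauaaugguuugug
miR-16-5p: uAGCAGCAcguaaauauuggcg
miR-215-5p: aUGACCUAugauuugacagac
miR-192-5p: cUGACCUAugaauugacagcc

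The villus array was the brighter one. Its control probes were 3.19 to 3.34 times as bright as on the day 5 array. Detection, set at 2 SD above the mean of the blank spots, was met by 1359 probes on day 5 and 1506 on villus, with 1326 detected on both and 1539 on at least 1 of these arrays. The day 5 array lay on another slide than the other 3, so the effects of day 5 culture and of the slide cannot be told apart. Below, a share of the Spike Control is a probe's intensity above the blank spots as a percentage of the mean of the Spike Control spots on the same array. Differences are log2, day 5 minus villus, after quantile normalisation of the 4 arrays unless another scaling is named. A miRNA counts as higher or lower where it was at least 2-fold apart. Where 1 array did not detect it, the difference is a bound on its size.

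On the normalised scale most miRNAs lay close together on the 2 arrays, and the larger differences ran mainly downwards in organoids. On day 5, 43 miRNAs were at least 2-fold higher (2.79% of the 1539 detected) and 71 were at least 2-fold lower (4.61%), of which 7 are bounds. Of the 1326 detected on both arrays, 906 (68.3%) differed by less than 0.25 and 1093 (82.4%) by less than 0.50, with an SD of 0.56 over all of them. This closeness belongs to the normalised scale, where an offset added to the intensities before log2 narrows the differences of dim probes. On day 5 the median miRNA probe had an intensity of 75.5 beside a blank mean of 68.1. Over the same 1326 the SD was 0.69 with an offset of 16. Without an offset it was 1.04 on the Spike Control scale and 1.00 after subtraction of the blank mean. The 43 higher ones had a median difference of 1.44 and the 64 measured lower ones one of -1.30. Just inside the 2-fold limit lay miR-6370 and miR-671-5p at 1.04 and let-7c-5p at -1.01, and just outside it miR-7662-3p at 0.99 and miR-15a-5p at -0.98. The split depended on the scaling. Higher miRNAs made up 37.7% of the differences counted here. Median scaling gave 14 higher (0.91%) and 161 lower (10.5%), so that 8.0% of its differences were higher. The 75th percentile gave 27 higher (1.75%) and 106 lower (6.89%), or 20.3% higher. The Spike Controls as the scale gave 99 higher (6.43%) and 302 lower (19.6%), or 24.7% higher. Subtracting the column named as background gave 35 higher (2.27%) and 34 lower (2.21%), or 50.7% higher. In bright spots that column was a median of 40.6% of the spot on day 5 and 56.4% on villus. Its subtraction thus took unequal shares from the 2 arrays, here and wherever it is used below. How far this changed the differences was not tested. Spike Control scaling moved the median of all detected miRNAs to -0.25 and the 75th percentile moved it to 0.23, against 0.02 in the values reported. All 71 lower miRNAs were also lower on the Spike Control scale and after median scaling, and 30 of them were lower after subtraction of the background column. Of the 43 higher ones, 42 were higher on the Spike Control scale, 14 after median scaling and 26 after that subtraction.

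**Figure D1:**
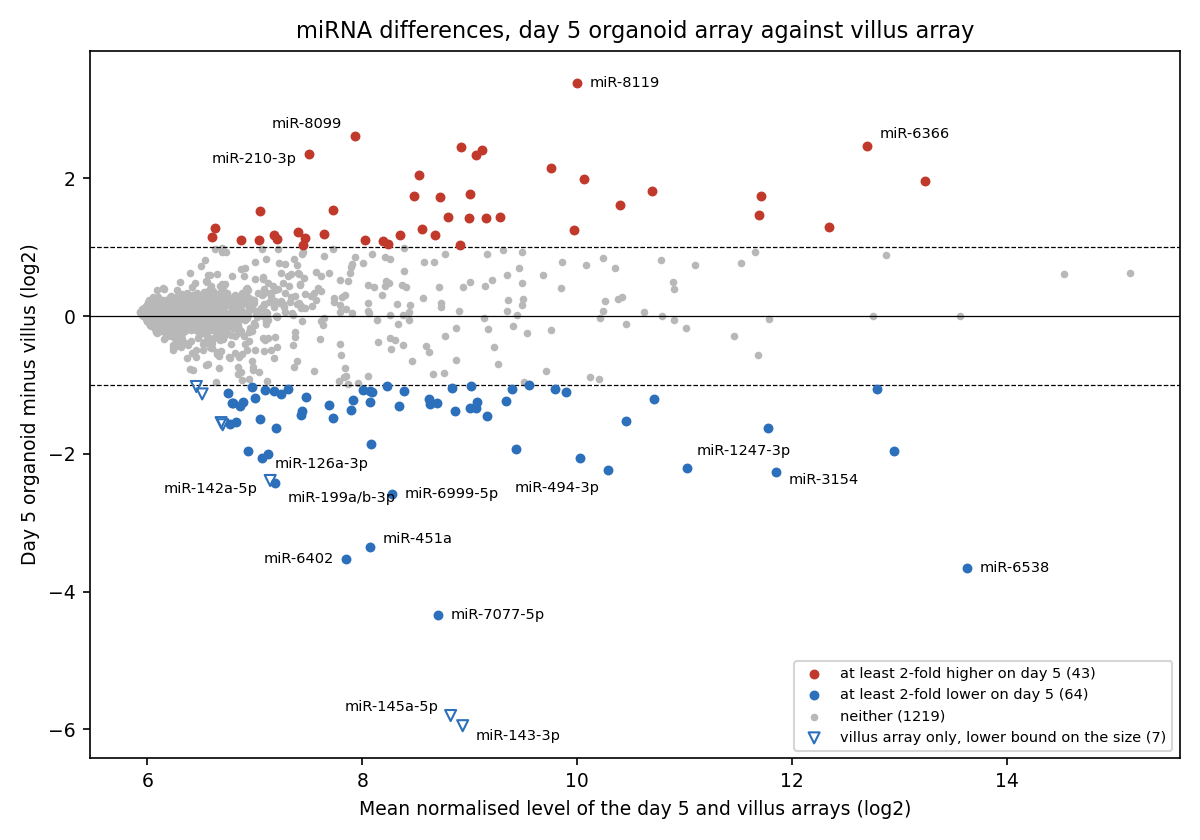
Each point is 1 miRNA, with its mean normalised log2 level on the 2 arrays across the page and its log2 difference, day 5 organoid minus villus, up the page. Red points are the 43 higher and blue points the 64 measured lower miRNAs; open triangles are the 7 lower ones detected on villus only, drawn at their bound, with miR-143-3p at -5.95 and miR-145a-5p at -5.80 lowest. Dashed lines mark 2-fold.

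The epithelial miRNAs were present on both arrays, and on the normalised scale most of them stayed short of 2-fold. miR-192-5p, a miRNA enriched in gut and liver epithelium, was at 19.4% of the Spike Control on day 5 and 31.1% on villus, beside 31.7% on crypt and 14.6% on day 1, a difference of -0.28. miR-194-5p, encoded beside its relatives and enriched in the same epithelium, was at 35.7% on day 5 and 96.9% on villus, beside 84.8% on crypt and 29.1% on day 1. miR-215-5p, which shares its seed with miR-192-5p, was at 17.2% on day 5 and 52.9% on villus, beside 39.5% on crypt and 19.3% on day 1. So miR-215-5p (-1.63) and miR-194-5p (-1.06) passed 2-fold and miR-192-5p did not. Both organoid arrays were below both tissue arrays for these 3. The 7 probes of this group had 0 higher, 2 lower and a median of -0.28, against 0.02 over all detected miRNAs. The 3p arms among them were dim, at 0.284% to 0.613% of the Spike Control on day 5. After median scaling 4 of the 7 were lower with a median of -1.71, and on the Spike Control scale 3 were lower with a median of -0.68. After background-column subtraction miR-194-5p stayed past 2-fold (-1.66) and miR-215-5p had -0.97. miR-194-1 and miR-215 lie together at chr1:185313325-185313667 (plus strand, GRCm38.p6), and of their 4 mature miRNAs the 2 that passed were the 5p arms. miR-194-5p has 2 loci, so its level cannot be assigned to this one.

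The miR-200 family, which holds epithelial cells in their state by acting on Zeb factors, had 9 of 10 probes detected, none of them 2-fold apart and a median of -0.03. miR-200b-3p was at 10.4% of the Spike Control on day 5 and 12.6% on villus, and miR-200a-3p was at 8.97% and 10.3%. The lowest difference of the family was that of miR-141-3p, at 3.82% on day 5 and 5.88% on villus (-0.44). After median scaling 4 of the 9 were lower by 2-fold and the family median was -0.94. It was -0.55 after 75th-percentile scaling, and 0.11 after background-column subtraction, which put miR-200b-3p at 1.06.

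The miR-17 cluster and its paralogs, which go with proliferation and are targets of Myc, had 14 of 14 probes detected, 0 of them 2-fold apart in either direction and a median of 0.20. Of these 14, 12 were above 0. miR-17-5p was at 5.25% of the Spike Control on day 5 and 3.73% on villus (0.53), beside 6.06% on crypt and 2.74% on day 1. miR-20a-5p, its neighbour with the same seed, was at 4.84% on day 5 and 3.72% on villus (0.44, and 1.08 after background-column subtraction). The direction of this group is not fixed by the data, since its median was 0.15 on the Spike Control scale but -0.61 after median scaling and -0.21 after 75th-percentile scaling. The miR-183 cluster, 3 miRNAs known from sensory and secretory cells, had a median of 0.39 and none 2-fold apart. There too the sign turned, to -0.18, after median scaling.

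Several broadly expressed families were lower in organoids together. Of 9 probes of let-7 and miR-98, 6 were at least 2-fold lower and none higher, with a median of -1.02. let-7b-5p was at 3.12% of the Spike Control on day 5 and 7.99% on villus (-1.23), and let-7a-5p was at 4.63% and 11.4% (-1.06). let-7f-5p was at 4.80% on day 5 and 11.8% on villus (-1.11). Their levels on the crypt array, 4.59% for let-7b-5p, 6.75% for let-7a-5p and 7.77% for let-7f-5p, lay between the day 5 and villus levels on this scale. On the quantile-normalised scale crypt was above villus, with a let-7 median of 0.67 for crypt minus villus, a difference that shares the villus array. Of the families described next, that median was 0.31 for miR-29, 0.28 for miR-30 and 0.34 for miR-26 with miR-148 and miR-152. It was 0.003 for miR-15 and miR-16, and -0.47 for the clusters of miR-23, miR-27 and miR-24. miR-98-5p, the dimmest of the list, had -0.23.

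The miR-29 family, known for lowering collagen and other matrix transcripts, had 3 of 3 probes lower, and their median was -1.29. miR-29a-3p was at 2.12% of the Spike Control on day 5 and 6.98% on villus, beside 3.90% on crypt and 1.83% on day 1. For miR-30, a family studied in epithelial differentiation and autophagy, 5 of 7 probes were lower with a median of -1.24. miR-30c-5p was at 2.37% on day 5 and 7.0% on villus, and miR-30e-5p had the largest difference of the family (-1.36). The remaining probes, the 3p arms miR-30a-3p and miR-30e-3p, were dim, at 0.118% and 0.153% on day 5 against 0.240% and 0.299% on villus, and had -0.16 and -0.20. The shared seed printed above belongs to the 5p arms.

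miR-26a-5p, known to restrain growth and the Polycomb enzyme Ezh2, had a larger difference than any let-7, miR-29 or miR-30 probe. It was at 2.39% of the Spike Control on day 5 and 11.7% on villus, beside 5.70% on crypt and 1.92% on day 1, a difference of -1.92. miR-26b-5p, with the same seed, had -1.30. Together with miR-148a-3p (-0.97), miR-148b-3p (-0.24) and miR-152-3p (at least 2.03-fold lower, not detected on day 5), the list had 3 of 5 lower and a median of -1.02. miR-26a-5p was lower by 2-fold under every scaling tried and also after background-column subtraction (-1.88).

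Background-column subtraction ended many of these 2-fold differences without turning the family medians. After it, 0 of 9 let-7 and miR-98 probes stayed past 2-fold (median -0.87), 1 of 7 for miR-30 (median -0.34) and 1 of 3 for miR-29 (median -0.96), whereas the list of miR-26 with miR-148 and miR-152 had 3 of 5 (median -1.12), with miR-148a-3p in place of miR-152-3p. Median scaling made the differences larger, with medians of -2.02 for let-7, -2.16 for miR-30 and -2.25 for miR-29.

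The clusters of miR-23, miR-27 and miR-24, studied in vessels, muscle and cell death, had 4 of 7 probes lower and a median of -1.05. miR-23a-3p was at 2.29% of the Spike Control on day 5 and 7.22% on villus, beside 1.67% on crypt and 1.95% on day 1, so the villus array alone was high. miR-23a, miR-27a and miR-24-2 lie together at chr8:84208527-84208896 (plus strand). Of the 5 mature miRNAs from there that were detected and had a matched sequence, 3 passed 2-fold. They were miR-23a-3p (-1.34), miR-27a-3p (-1.28) and miR-24-3p (-1.05, but -0.36 after background-column subtraction). miR-24-3p is also made from miR-24-1 on chromosome 13, so its level cannot be assigned to 1 locus. In the family of miR-15 and miR-16, which hold back cell-cycle genes, miR-195a-5p (-1.63) and miR-497a-5p (-1.26) were lower while miR-15b-5p had 0.14. After background-column subtraction neither stayed lower by 2-fold, with 0.22 for miR-195a-5p and -0.31 for miR-497a-5p. These 2 are encoded together at chr11:70234730-70235121. miR-195a-5p was at 0.166% on day 5 and 1.90% on villus, whereas miR-16-5p, the brightest probe of the family, was at 6.06% and 13.0% (-0.89, but 1.67 after background-column subtraction). The list median was -0.93, and 0.08 after background-column subtraction.

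**Figure D2:**
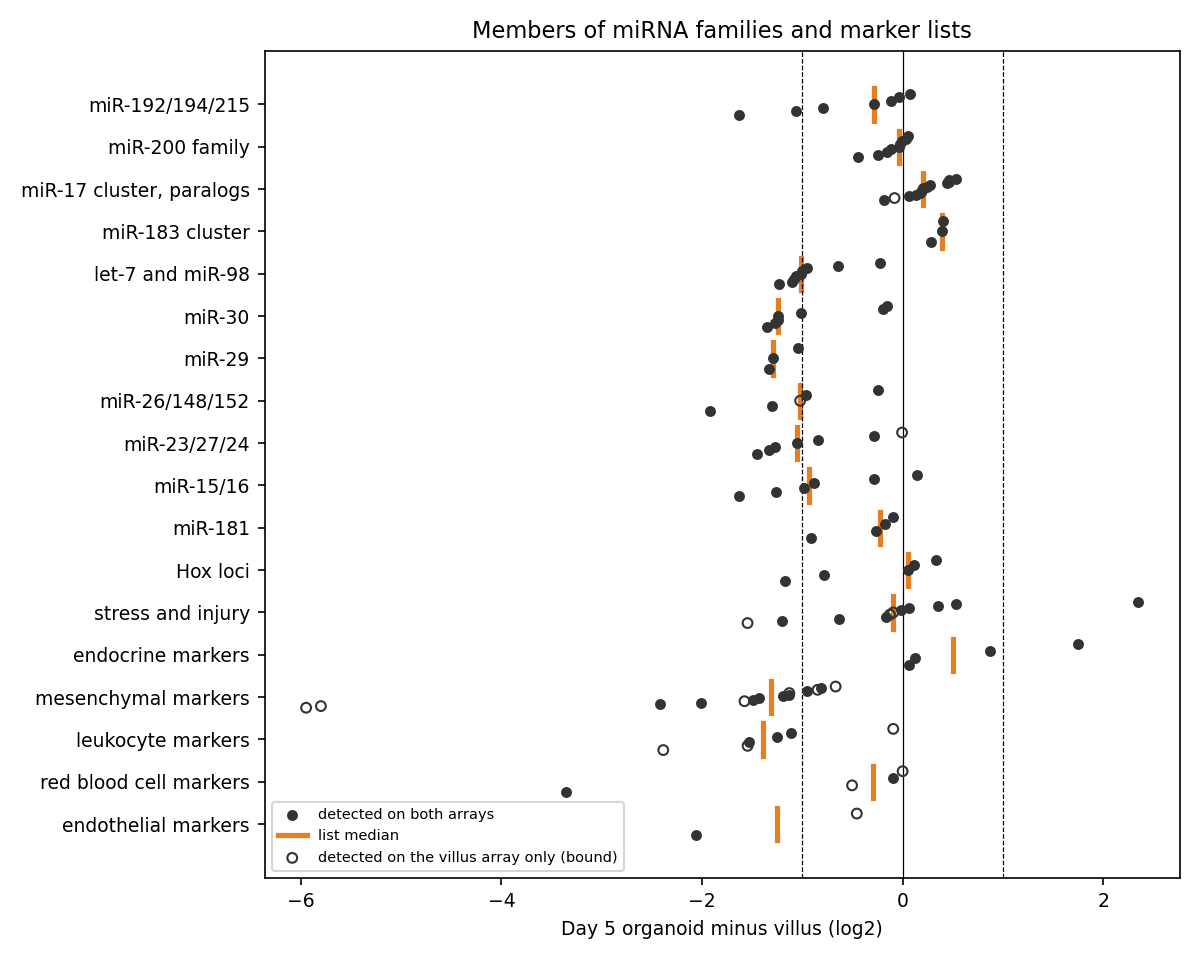
Each row is 1 list, each point 1 detected miRNA at its log2 difference, day 5 organoid minus villus, and the orange bar is the list median. Open circles were detected on villus only and are bounds; the points of miR-29 and most of let-7 and miR-30 lie near or beyond the dashed 2-fold line at -1, while those of miR-200 and the miR-17 cluster lie around 0.

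The let-7 seed GAGGUAG was shared by 10 detected miRNAs with a matched sequence, of which 6 were lower and 0 higher. The seeds AGCACCA of miR-29 and GUAAACA of miR-30 each had 3 of 3 lower, UCAAGUA of miR-26 had 2 of 2, and AGCAGCA of miR-15 and miR-16 had 2 of 9. The seed CCCUGAG of miR-125b-5p and miR-125a-5p had 2 of 5 lower and a median of -0.12. Members of one family differ at few bases, and whether their probes bind each other's RNA was not tested, so the members are not independent measurements. No seed was shared by more than 1 of the 38 higher miRNAs with a matched sequence.

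The largest differences of all were in miRNAs of smooth muscle and stroma, which were high on the villus array and at or near the detection limit on day 5. miR-143-3p was not above the detection limit of 0.0278% of the Spike Control on day 5 and stood at 41.7% on villus, beside 0.486% on crypt and 0.0797% on day 1. miR-145a-5p, made from the same precursor transcript, was likewise not detected on day 5 and stood at 35.2% on villus, beside 0.316% on crypt and 0.0647% on day 1. On the normalised scale miR-143-3p was at least 61.7-fold and miR-145a-5p at least 55.7-fold lower in organoids, and on the Spike Control scale, where no offset is added, the bounds were -10.55 and -10.31. After background-column subtraction they were -4.97 and -4.65.

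Of 14 mesenchymal probes, miR-143-3p and miR-145a-5p included, all detected on villus and 8 on day 5, 10 were lower and none higher, with a median of -1.31, which was -3.81 on the Spike Control scale and -0.25 after background-column subtraction, where 4 stayed past 2-fold. Summed over the list, the level was 1.40% of the Spike Control on day 5 and 92.2% on villus, beside 1.79% on crypt and 1.81% on day 1. Most of the villus sum came from miR-143-3p and miR-145a-5p. Without them, a split made after the values were seen, 8 of 12 probes were lower, with a median of -1.16 and a summed level of 1.36% on day 5 and 15.3% on villus, beside 0.988% on crypt and 1.67% on day 1. The median of these 12 was -3.58 on the Spike Control scale and -0.22 after background-column subtraction, where 2 stayed past 2-fold. miR-1a-3p, the miRNA of muscle fibres, was not detected on day 5 and was at 1.17% on villus, at least 2.98-fold lower. The probe that serves both miR-199a-3p and miR-199b-3p was at 0.0310% on day 5 and 2.45% on villus (-2.42), and miR-125b-5p was at 0.0704% and 2.16% (-2.01). These 2 probes were dim on day 5 but not on villus, where their intensities were 797 and 714 beside a detection limit of 108. After background-column subtraction the miR-199 probe had 0.18 and miR-125b-5p 0.33, whereas miR-145a-5p and miR-143-3p stayed lower by 2-fold. In every other alternative run the miR-199 probe and miR-125b-5p stayed lower by 2-fold too.

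Several markers of blood and vessel cells were also lower in organoids, while others did not reach 2-fold. miR-451a, which is made in red blood cells, was at 0.171% of the Spike Control on day 5 and 7.26% on villus (-3.36), beside 0.161% on crypt and 0.179% on day 1. It was the 1 of 4 red blood cell probes that was lower, and the list median was -0.30, which was -1.85 on the Spike Control scale and -0.13 after background-column subtraction. The probe of miR-486a-5p and miR-486b-5p was at 0.291% on day 5 and 0.407% on villus (-0.09). miR-144-3p and miR-144-5p were at 0.257% and 0.0353% on villus and were not detected on day 5, where the limit was 0.0278%. Their differences are bounds that did not reach 2-fold on the normalised scale, so larger differences are possible. On the Spike Control scale 2 of the 4 red blood cell probes were lower. Of 6 leukocyte probes, 5 were lower and 3 were detected on day 5, with a median of -1.39 and a summed level of 0.282% on day 5 and 6.83% on villus, beside 0.602% on crypt and 0.419% on day 1. After background-column subtraction their median was -0.37 and 0 of the 6 stayed past 2-fold. miR-142a-5p, a miRNA of blood lineages, was not detected on day 5 and was at 2.41% on villus, at least 5.23-fold lower. miR-223-3p of myeloid cells was at 0.0859% on day 5 and 1.05% on villus (-1.25), and miR-150-5p of lymphocytes was at 0.0947% and 0.908% (-1.11). miR-126a-3p, made in endothelium from within Egfl7, was at 0.0471% on day 5 and 2.11% on villus (-2.06), and it had 0.15 after background-column subtraction. For these lists the villus array stood apart from the other 3 arrays, crypt included. In such bulk samples fewer cells of a type and less RNA per cell cannot be told apart.

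On villus the lower, broadly expressed families summed to between 14.6% of the Spike Control for miR-29 and 61.2% for let-7 with miR-98. The mesenchymal list, at 92.2%, was above each of them, but at 15.3% without miR-143-3p and miR-145a-5p. The leukocyte (6.83%), red blood cell (7.96%) and endothelial (2.35%) lists were below each of them. The part of these marker lists in the differences of those families was not tested. The villus sample is labelled as epithelium, and epithelial miRNAs were present there too. The miR-192, miR-194, miR-215 list summed to 73.9% of the Spike Control on day 5 and 184% on villus, and the miR-200 family to 33.1% on day 5 and 40.6% on villus. Neural markers (3 of 5 detected) and those of liver and pancreas (1 of 4) had medians of -0.02 and -0.10 and no member 2-fold apart. Among 8 markers of pluripotent cells 4 were detected, with a median of 0.10 and 1 higher, miR-290a-5p at 1.18. It fell short of 2-fold after median scaling (0.68) and after background-column subtraction (0.69).

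**Figure D3:**
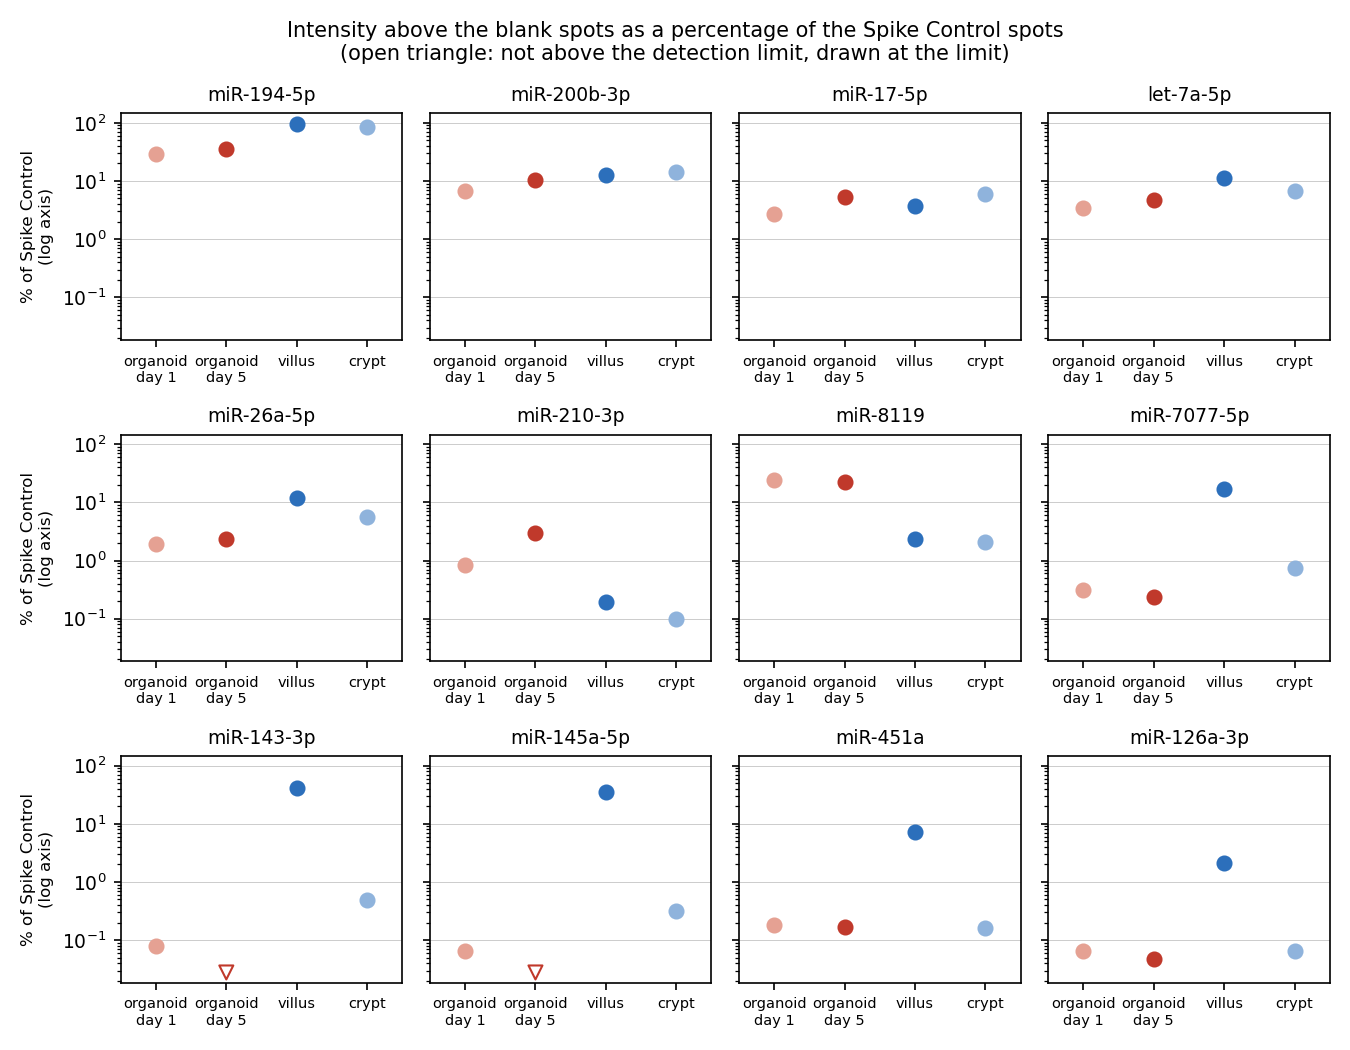
Each panel is 1 miRNA, with the 4 arrays across the page and its intensity above the blank spots, as a percentage of the Spike Control spots, on a log axis. Open triangles mark arrays at or below the detection limit, drawn at the limit; miR-143-3p and miR-145a-5p are high on villus alone, miR-8119 is high on both organoid arrays, and miR-210-3p is highest on day 5 at 2.97%.

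Against these, miR-210-3p, the miRNA known to be induced by low oxygen through Hif1a, was higher in organoids. It was at 2.97% of the Spike Control on day 5 and 0.191% on villus, beside 0.850% on day 1 and 0.10% on crypt, so both organoid arrays were above both tissue arrays. The difference was 2.35, and 3.96 on the Spike Control scale, with a villus intensity of 155 beside a detection limit of 108. It was higher by 2-fold in every alternative run, with the lowest value, 1.67, for the background column. The other arm of the hairpin, miR-210-5p, was at 0.510% on day 5 and 0.483% on villus (0.16).

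Of the 11 miRNAs listed for stress and injury, miR-210-3p was the 1 that was higher, and miR-22-3p (-1.20) and miR-146a-5p (at least 2.92-fold lower, not detected on day 5) were lower, with a list median of -0.09. After background-column subtraction miR-146a-5p had -0.85, short of 2-fold. miR-21a-5p, an abundant miRNA that rises in injured and inflamed tissue, was at 16.9% of the Spike Control on day 5 and 21.1% on villus (-0.17). miR-31-5p, a miRNA of regenerating crypts, was at 2.60% on day 5 and 4.39% on villus (-0.63). Neither reached 2-fold. Of 5 detected miRNAs of the Hox loci, miR-10a-5p (-1.18) passed 2-fold, but it had -0.40 after background-column subtraction. miR-10b-5p had -0.78, and passed 2-fold after median scaling (-1.52) and on the Spike Control scale (-1.93). No member of the miR-34 family, targets of p53, and none of miR-181 passed 2-fold, though 1 of 4 miR-34 probes and 3 of 4 miR-181 probes were lower on the Spike Control scale.

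Among miRNAs of endocrine cells, miR-375-5p was at 4.84% of the Spike Control on day 5 and 1.25% on villus (1.75), beside 3.93% on crypt and 3.82% on day 1, so the villus array was the low one. Its partner arm miR-375-3p, which is the arm known to act in islets and enteroendocrine cells, was at 0.495% on both arrays (0.13). miR-7a-5p was at 1.58% on day 5 and 0.780% on villus (0.87). The list of 4 had a median of 0.50 with 1 higher and none lower, and after median scaling miR-375-5p had 0.83, short of 2-fold.

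**Figure D4:**
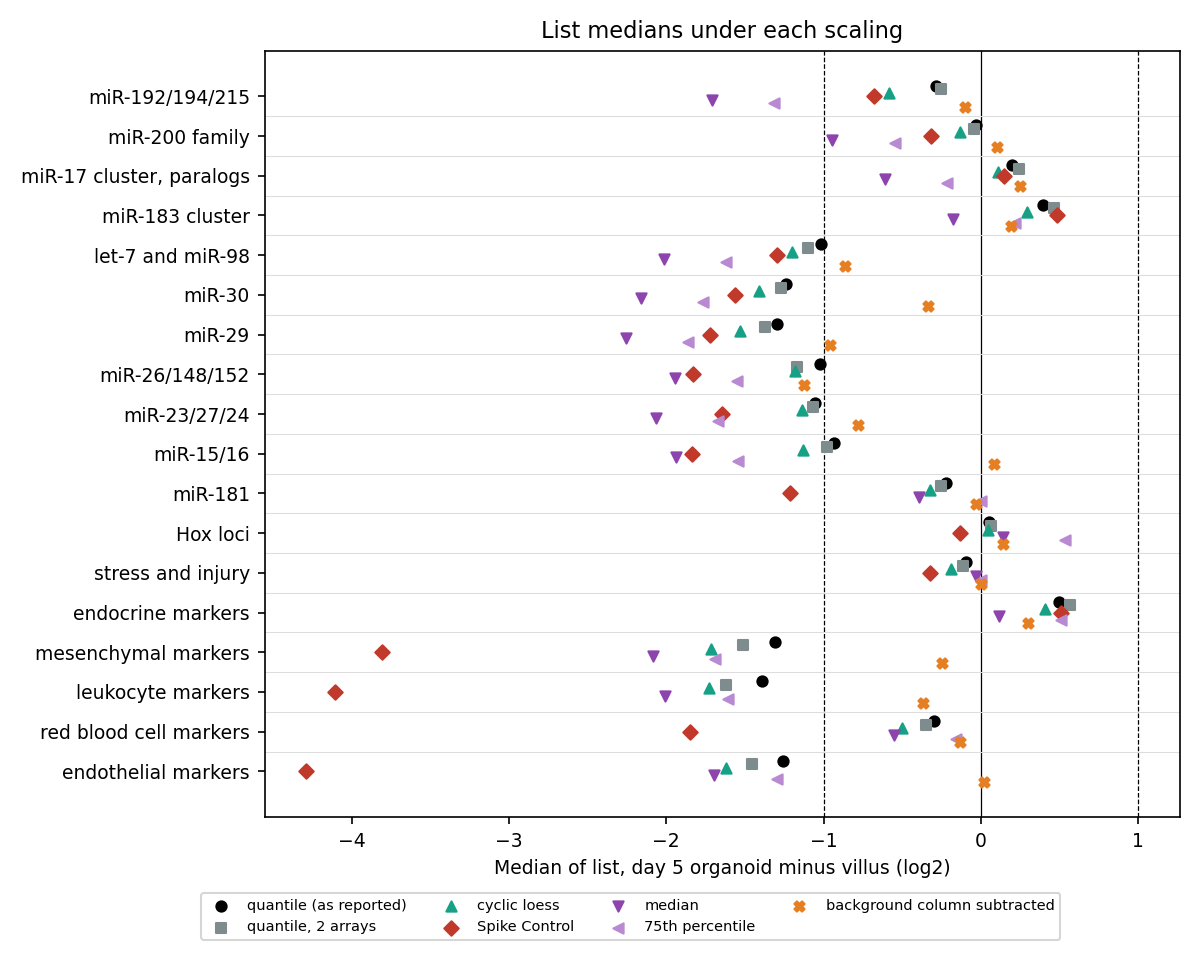
For each list (rows) the symbols give the median log2 difference, day 5 organoid minus villus, under the reported normalisation and 6 other ways of scaling or background treatment. The medians of let-7, miR-30, miR-29, miR-26 and miR-23 with its neighbours stay left of 0 under all 7, whereas those of miR-200 and the miR-17 cluster lie on both sides of 0.

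The miRNAs farthest above villus were of another kind, and most of them carry late numbers. miR-8119 was at 22.3% of the Spike Control on day 5 and 2.38% on villus (3.39), beside 24.2% on day 1 and 2.07% on crypt. miR-7036a-5p was at 8.38% on day 5 and 1.37% on villus (2.46), beside 23.4% on day 1 and 0.475% on crypt. miR-7047-5p was at 9.51% on day 5 and 1.69% on villus (2.42), beside 11.5% on day 1 and 0.787% on crypt. miR-6366, one of the brightest probes, was at 143% on day 5 and 31.1% on villus (2.47), beside 103% on day 1 and 100% on crypt, so it was the villus array that stood apart. miR-8099 (2.61), miR-6244 (2.35), miR-6937-5p (2.15), miR-5122 (2.05), miR-6769b-5p (2.0), miR-2137 (1.96) and miR-326-5p (1.82) complete the 12 largest with miR-210-3p. By share of the Spike Control, the day 1 array was also above villus for each of these 12. Of the miRNAs in the lists above, miR-210-3p is the 1 among these 12. After background-column subtraction and on the Spike Control scale all 12 stayed higher by 2-fold, and after median scaling 11 did. The largest bounds, for miRNAs detected on day 5 only, were small, with miR-592-3p at 1.20-fold and miR-500-5p at 1.16-fold.

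Late-numbered miRNAs were also among those farthest below villus. miR-7077-5p was at 0.236% of the Spike Control on day 5 and 16.7% on villus (-4.34), beside 0.737% on crypt and 0.317% on day 1. miR-6402 was at 0.0609% on day 5 and 6.73% on villus (-3.53), beside 0.0797% on crypt and 0.165% on day 1, and miR-6538 was at 24.9% and 163% (-3.66). These were villus-high like miR-143-3p, since all 3 other arrays were far lower. miR-6999-5p (-2.58), miR-3154 (-2.26), miR-494-3p (-2.23), miR-1247-3p (-2.20) and miR-6955-5p (-2.06) complete the 12 largest together with miR-451a, the miR-199 probe, miR-126a-3p and miR-125b-5p. Of these 12, 9 kept the 2-fold difference after background-column subtraction and 3, the miR-199 probe, miR-126a-3p and miR-125b-5p, were above 0.

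By number in the name, 52 of 486 miRNAs numbered below 500 were lower (10.7%) and 12 higher (2.47%). From 1000 upwards 19 of 916 were lower (2.07%) and 27 higher (2.95%), and in between 0 of 137 were lower and 4 higher. The lower differences thus fell mostly on the early-named miRNAs, which hold the conserved families described above, and the higher ones made up a like share of early and late names.

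The higher set was rich in G. Its 38 matched sequences had a median G content of 47.6% and a median GC content of 64.3%, against 27.9% and 47.7% for the 58 lower ones and 27.3% and 54.5% for the 1214 others detected. At 50% G or more, 16 of 117 miRNAs were higher (13.7%) and 5 lower, and below 20% G, 4 of 385 were higher (1.04%) and 13 lower. The same classes held 19 and 10 higher on the Spike Control scale and 14 and 4 after background-column subtraction. They held 12 and 56 lower on the Spike Control scale and 5 and 5 lower after that subtraction. The class medians were 0.10 and 0.05 as reported but -0.39 and -0.04 after median scaling, so the lean of the G-rich class depended on the scaling. Of the higher sequences printed above, miR-8119 has 55.0% G, and miR-7036a-5p and miR-7047-5p have 56.5% each. The day 5 array was on its own slide and dimmer than villus, and whether either bears on G-rich probes was not tested. miR-6538, with 57.9% G, is an exception in the other direction.

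**Figure D5:**
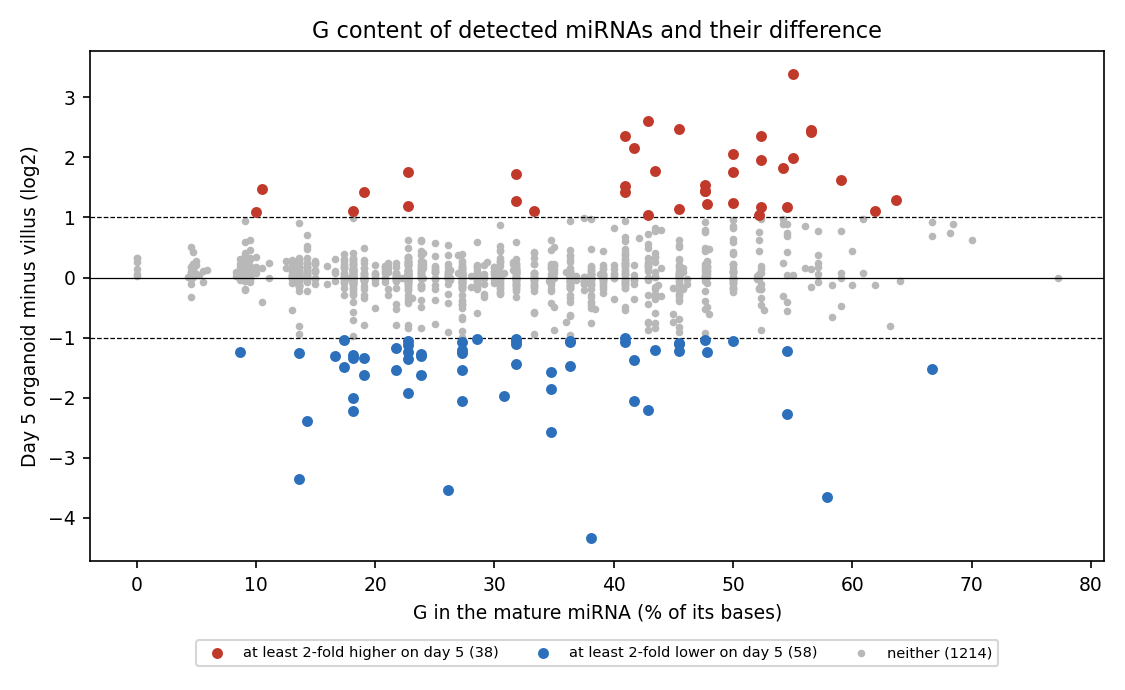
Each point is 1 detected miRNA with a matched sequence, with the percentage of G in its mature sequence across the page and the log2 difference, day 5 organoid minus villus, up the page. Most of the 38 red points (higher) lie to the right of 40% G, while the 58 blue points (lower) spread from 8.70% to 66.7%.

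Arms of 1 hairpin rarely passed 2-fold together on the normalised scale, whose offset narrows the differences of dim probes. On the Spike Control scale the 5p and 3p arms had -1.79 and -1.03 for miR-30a and -1.62 and -1.54 for miR-215. Those of miR-30e had -2.02 and -0.97, so its 3p arm fell short. Such pairs were not counted over all hairpins on that scale, and the counts below are those of the normalised scale. Both arms were detected on at least 1 of the arrays for 428 hairpins, and 51 of these had an arm that passed 2-fold. In 12 of them only the 5p arm was higher, in 3 only the 3p arm was higher, in 21 only the 5p arm was lower and in 13 only the 3p arm was lower. Both arms were lower for 1, miR-142a (-2.39 for 5p, a bound, and -1.53 for 3p). The arms went opposite ways for 1, miR-125a, named here after its values were seen, with -1.31 for miR-125a-5p and 1.42 for miR-125a-3p. The miR-125a hairpin lies with those of miR-99b and let-7e at chr17:17830194-17830876 (plus strand), where let-7e-5p was lower as well (-1.08). Elsewhere, neighbouring hairpins within 10 kb with 2 or more miRNAs past 2-fold held lower and no higher ones, among them miR-199a-5p with miR-214-3p at chr1:162217844-162223459 and miR-29b with miR-29c at chr1:195037050-195037621. miR-199a-5p and miR-29b-3p have 2 loci each, so their levels cannot be assigned to these places alone.

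In the genome, 25 of the 38 higher and 28 of the 58 lower miRNAs with a sequence lay within the span of a RefSeq protein-coding gene (65.8% and 48.3%), against 868 of 1214 others (71.5%). miR-8119 lies at chr4:129557756-129557775 on the minus strand within Lck, and miR-7036a-5p at chr5:137296661-137296683 on the minus strand within Srrt. miR-7077-5p lies at chr8:117453025-117453045 on the plus strand within Cmip. miR-210-3p, at chr7:141221407-141221428 on the minus strand, and miR-451a, at chr11:78073186-78073207 on the plus strand, lie within no protein-coding gene. Exons and introns of these genes were not analysed here.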

How the data were processed

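Each of the authors' deposited scanner tables holds, per the file headers, 1 intensity per spot, a median at 635 nm on a linear scale, merged from 3 gains by straight-line fits. Per the labels' protocols, a miRNeasy kit was used for extraction and Cy5 for labelling. The deposited processed values are intensities too, with a median of 25.0 on each array, and served as an alternative. The sources used here name no array maker, scanner or software.

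Spot medians went through normexp with an offset of 50 (limma 3.58.1, R 4.3.3), log2 and quantile normalisation across 4 arrays and 1897 miRNA probes. The column named as background followed its own spot (correlation of log2 values 0.957 on day 5 and 0.963 on villus across probes) and was used only in an alternative. In bright spots it was a median of 40.6% of the spot on day 5 and 56.4% on villus. A probe was detected where it exceeded the blank mean by 2 SD, over 896 blank spots trimmed by 5% at each end. Where 1 array missed a probe, the bound was taken on that array against its own level or the lowest detected level, whichever was higher. Spike Control shares use intensities less the blank mean. There are 12 probes with more than 1 miRNA name, and their values belong to no single one.

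Named miRNAs are the 12 largest differences each way (both arrays detecting, mean level above the overall median), the 4 largest bounds each way, and members of 23 lists. The members and lists were chosen with earlier results of these data known. The sequence, arm, cluster and host-gene descriptions were chosen after values had been seen. With 1 array per group no test was possible, and 1 spot per probe limits the precision. The steps were tested on simulated intensities. That simulation built every array from the villus profile with changes of known size, so it does not cover slide effects or samples with unlike profiles.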

Additional observations from a re-analysis of the deposited data

How the results depend on the processing

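Under 12 alternatives, the count higher on day 5 (43 as reported) was 14 after median scaling, 27 after 75th-percentile scaling, 66 with an offset of 16, 99 on the Spike Control scale, 115 in the deposited values and 143 after subtraction of the blank mean. The count lower (71 as reported) was 34 after background-column subtraction, 161 after median scaling, 178 after subtraction of the blank mean, 263 in the deposited values and 302 on the Spike Control scale. The Spike Control scale, the deposited values and subtraction of the blank mean add no offset. Whether this or the scaling accounts for their larger counts was not tested. Among named miRNAs past 2-fold, only background-column subtraction turned a direction, giving 0.18 for miR-199a-3p/199b-3p (1 probe), 0.15 for miR-126a-3p, 0.33 for miR-125b-5p, 0.22 for miR-195a-5p and 0.22 for miR-199b-5p, and it gave 0.020 for the endothelial median. Of 66 named miRNAs past 2-fold, 63 stayed so after median scaling, 64 after 75th-percentile scaling, 66 on the Spike Control scale and 35 after background-column subtraction. No paired analysis was possible because each group had 1 array, and for the same reason no array could be left out. The 180 miRNAs detected on villus only have no measured day 5 level, and the dimmer day 5 array limits what could be seen there.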
